A study of Mus musculus with 23 samples.

Results

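Transcript levels of 10 interferon-gamma-inducible GTPases were followed through B cell activation and plasmablast formation in mouse spleen B cells with and without a guide RNA against Irf8. The members were taken by gene symbol: the guanylate-binding proteins Gbp2, Gbp3, Gbp7 and Gbp9, and the immunity-related GTPases Irgm1, Irgm2, Igtp, Ifi47, Tgtp1 and Tgtp2. All 10 were listed among the 11548 genes of the naive table and the 10574 genes of the cultured table, and all 10 passed the filter on low values, which asked for 1 RPKM in 2 or more libraries. RPKM are read counts scaled to gene length and library size.

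Interferon-gamma acts through its receptor and the kinases JAK1 and JAK2, and its signal reaches promoters at gamma-activated sites. Its targets include IRF1, and the IRF factors, IRF8 among them, bind interferon-stimulated response elements. IRF8 also binds composite elements together with the ETS factors PU.1 and SpiB, which are prominent in B cells. Guanylate-binding proteins coat vacuoles and bacteria inside the cell and promote inflammasome activation. The immunity-related GTPases fall into a GMS class (Irgm1, Irgm2 and Igtp, also called Irgm3), which sits on the cell's own membranes and holds the others inactive, and a GKS class (Tgtp1, Tgtp2 and Ifi47), which loads onto pathogen vacuoles and breaks them.

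The 23 libraries fell into 8 groups, all sorted from spleen as negative for CD11b, F4/80 and Thy1.2. KO cells carried an Irf8 guide and were Thy1.1-positive, and WT cells carried no guide and were Thy1.1-negative. Naive B220-positive, untreated cells came in 2 arms, guide 1 (3 KO, 3 WT) and guide 2 (3 KO, 3 WT). Cultured KO cells carried guide 1, and the cultures ran for 72 h with IL-2 at 20 ng/ml, IL-5 at 5 ng/ml and LPS at a labelled 20 mg/ml. From them came activated B cells (GL7-positive, CD138-negative; 3 KO, 3 WT) and plasmablasts (CD138-positive; 3 KO, 2 WT), which the cell type label calls plasma cells. WT plasmablast replicate 3 is not analysed here. A group with a non-targeting guide is not among the samples, so loss of Irf8 cannot be told apart from carrying a guide or from the Thy1.1 sort. How the guide was delivered, and whether the replicates came from separate animals, is not given in the labels, so p-values measure only the spread between these samples. Irf8 RNA was still measured in every KO library, at 47.6 to 77.7 RPKM in naive KO cells and 79.8 to 98.0 RPKM in naive WT cells.

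Several libraries stood apart. The activated library labelled KO replicate 3 held 0.093 RPKM of Thy1, the gene of the sorted marker, and that labelled WT replicate 3 held 25.7 RPKM, against 21.9 and 27.8 RPKM in the other activated KO libraries and 0.013 and 0.055 RPKM in the other activated WT libraries. Irf8 was at 69.2, 68.1 and 92.4 RPKM in activated libraries labelled KO and 108, 93.6 and 60 RPKM in those labelled WT, and at 17.5, 21.4 and 24.2 RPKM in KO and 24.6 and 17.6 RPKM in WT plasmablasts. Both activated replicate 3 libraries thus went against their labels. Plasmablast KO replicate 3 held an estimated 51300 reads, with 0 to 6 reads on each member, so that 1 read was worth 1.37 to 6.89 RPKM there. The other cultured libraries held 4320000 to 26900000 reads and the naive ones 14500000 to 22200000, estimated from the smallest steps between values. The cultured comparisons were therefore fitted with all libraries as labelled and without these 3 libraries, which leaves 2 against 2. Naive KO guide 1 replicate A had 1405 genes listed at 0, against 66 to 291 in the other naive libraries, and naive comparisons are also given without it and the WT replicate A of its arm, a WT library with 4.93 RPKM of Thy1.

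The B cell identity of the naive libraries was clear from the markers Ms4a1, Cd79a, Cd79b, Pax5, Ebf1 and Cd22, which summed to 2308 to 2892 RPKM. None of the 9 T cell or 6 neutrophil markers was listed in the naive table. Of 11 macrophage and monocyte markers 7 were listed in the naive table, summing to 5.00 to 36.6 RPKM in naive KO cells of guide 1, 5.81 to 12.1 in their WT cells, 0.119 to 5.09 in KO cells of guide 2 and 2.57 to 9.82 in their WT cells. No macrophage or neutrophil marker was listed in the cultured table, and of the T cell, natural killer cell and dendritic cell lists 1 gene each (Cd28, Prf1 and Flt3). Of 8 natural killer markers 5 were in the naive table and summed to at most 14.0 RPKM, with at most 3.14 for 4 of 6 dendritic markers and 21.7 for 2 of 6 erythroid markers. The part of these markers in the results was not tested. Sdc1, the gene of CD138, was at 33.3, 29.3 and 3.03 RPKM in plasmablast KO and 27.5 and 34.1 RPKM in plasmablast WT libraries, against at most 0.790 RPKM in activated cells. In naive cells it was at 0 to 0.232 RPKM in KO and 3.39 to 3.87 in WT of guide 1. With guide 2 it was at 0.119 to 1.19 in KO and 1.97 to 2.36 in WT. All 6 plasmablast markers listed there summed to 83.9 to 115 RPKM in KO and 82.5 to 94.5 in WT of guide 1. The guide 2 sums were 76.7 to 91.1 in KO and 86.9 to 163 in WT, and their part was not tested.

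Gbp2, Gbp3 and Gbp7 lie together on chromosome 3 (GRCm38.p6, RefSeq), at chr3:142620663-142638008, chr3:142560016-142573213 and chr3:142530336-142550151, all on the plus strand. Gbp9 lies apart on chromosome 5 (chr5:105076464-105110357). The 6 immunity-related GTPases lie on chromosome 11. Irgm1 (chr11:48865245-48871420), Tgtp1 (chr11:48985329-48992246) and Tgtp2 (chr11:49057196-49064212) are on the minus strand. Ifi47 (chr11:49076587-49096987), Igtp (chr11:58199556-58207592) and Irgm2 (chr11:58214977-58222783) are on the plus strand. The longest protein-coding transcripts of Tgtp1 and Tgtp2 in GENCODE M21 were identical at 99.8% of 2810 aligned bases, and 89.4% of the 50-base stretches of Tgtp1 occur unchanged in Tgtp2. Reads of these copies may have been split between them, so their separate values are uncertain. The difference of their sum is also given, from fits with all libraries. The next closest pairs shared far fewer such stretches, 6.3% of those of Irgm2 with Igtp and 4.8% of those of Gbp3 with Gbp7. The gene lengths in the deposited tables exceed the RefSeq gene spans of Irgm1 (8173 against 6176 bases) and Irgm2 (10457 against 7807). They also exceed the longest GENCODE M21 protein-coding transcript of other members, as for Ifi47 (14264 against 1773 bases) and Gbp9 (9523 against 4381). For Gbp2 the gap was smaller (2830 against 2516). Levels are therefore compared between groups within a gene and are not ranked between members.

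Of the 10 members 9 had a RefSeq promoter window of 250 bases before to 50 after the start, all but Gbp9. The core of the interferon-stimulated response element, GAAANNGAAA on either strand, was in 8 of these 9 windows, all but that of Ifi47, and in 3.44% of all 32851 windows. The following 60-base stretches of those 8 windows (GRCm38.p6) are shown because they hold the element that IRF factors bind. Each is written 5′ to 3′ on the gene's own strand, with the matched bases in capitals. On the Gbp promoters the match reads in reverse, as TTTCNNTTTC, and on those of the immunity-related GTPases it reads forward.
Gbp2, chr3:142620579-142620638, plus strand: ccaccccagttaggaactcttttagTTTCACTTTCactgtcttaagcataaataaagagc
Gbp3, chr3:142559977-142560036, plus strand: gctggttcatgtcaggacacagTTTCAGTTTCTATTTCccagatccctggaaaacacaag
Gbp7, chr3:142530258-142530317, plus strand: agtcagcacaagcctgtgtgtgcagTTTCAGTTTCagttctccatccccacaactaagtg
Irgm1, chr11:48871421-48871480, minus strand: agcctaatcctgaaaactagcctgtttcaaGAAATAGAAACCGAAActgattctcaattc
Irgm2, chr11:58214888-58214947, plus strand: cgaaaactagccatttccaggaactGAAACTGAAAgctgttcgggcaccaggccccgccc
Igtp, chr11:58199496-58199555, plus strand: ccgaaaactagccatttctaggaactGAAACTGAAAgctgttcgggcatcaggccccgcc
Tgtp1, chr11:48992289-48992348, minus strand: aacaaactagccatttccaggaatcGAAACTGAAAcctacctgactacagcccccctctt
Tgtp2, chr11:49064248-49064307, minus strand: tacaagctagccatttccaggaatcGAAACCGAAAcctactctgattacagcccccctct

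In Gbp3 and Irgm1 2 matches overlap, which gives the longer run of capitals. The gamma-activated site, searched as TTCNNNGAA, was in 5 of the 9 windows (Gbp7, Irgm2, Igtp, Tgtp1 and Tgtp2) and in 8.3% of all windows. The ETS-IRF composite element GGAANNGAAA was in 4 of 9 (Irgm2, Igtp, Tgtp1 and Tgtp2) and in 2.72% of all windows, and in these 4 it overlaps both the gamma-activated site and the response element core. Its other arrangement, GAAANNGGAA, was in the window of Gbp7 and in 2.8% of all windows. In the stretches above the composite begins at the letters ggaa just before the capitals. A match describes the letters of a window and does not show that a factor binds there.

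**Figure D1:**
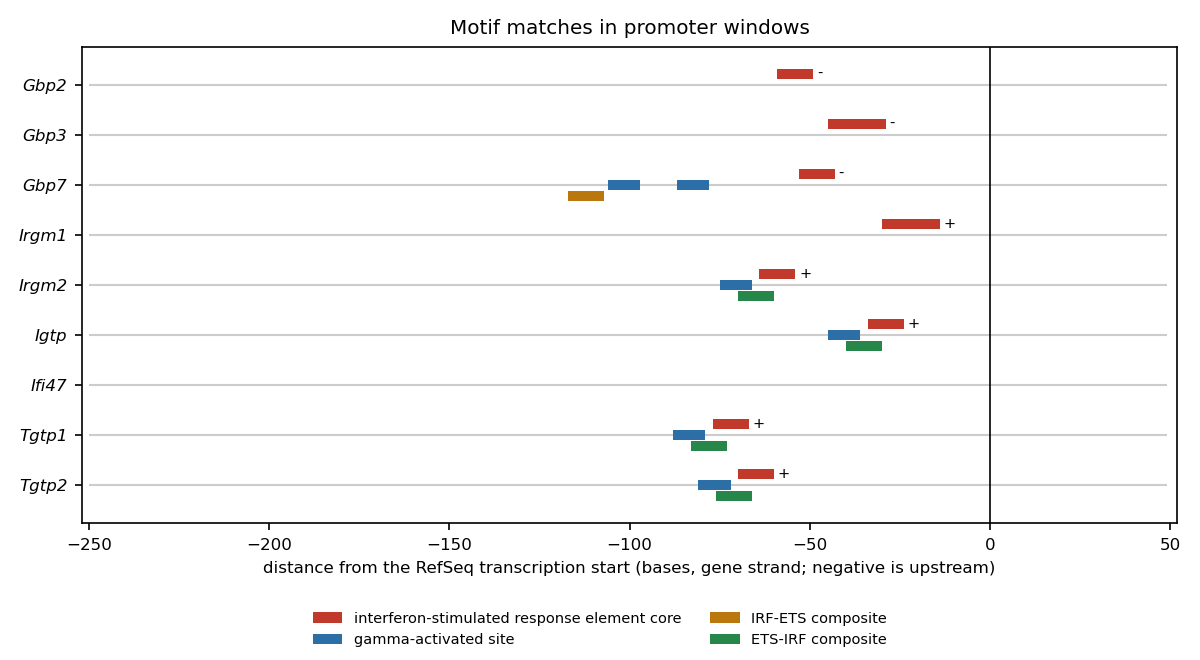
Positions of the 4 motifs in the promoter windows of the 9 members that have one. The horizontal axis is the distance in bases from the RefSeq start on the gene's strand, bars span the matched bases, and + or - marks the strand of the response element core. The cores of 8 members end 15 to 68 bases before the start, reversed in the 3 Gbp genes and forward in the others, and Ifi47 has none.

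Gbp2 was at 27.7 to 34.8 and 23.9 to 30.9 RPKM in naive KO cells of guides 1 and 2, and at 15.5 to 21.2 and 13.6 to 21.2 RPKM in the matching naive WT cells. It was at 35.8 to 52.5 RPKM over all activated libraries, 2.62, 3.69 and 13.8 RPKM in KO plasmablasts and 0.490 and 1.47 RPKM in WT plasmablasts. Activated libraries were thus all above the others, and apart from KO replicate 3 the plasmablasts were below all naive libraries. Gbp3 was at 20.7 to 38.4 RPKM over the naive libraries and 29.3 to 39.4 RPKM over the activated ones, ranges that overlap, and at 10.7 to 14.6 RPKM in plasmablasts. Gbp9 was at 21.6 to 33.6 RPKM in naive libraries other than KO guide 1 replicate A (6.78 RPKM), at 4.97 to 9.78 RPKM in activated cells and 3.60 to 4.31 RPKM in plasmablasts. The naive and cultured tables were made separately, so these steps between naive and cultured cells carry no test.

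Irgm1, which holds other GTPases inactive and takes part in autophagy, was at 16.8 to 34.6 RPKM in naive, 8.87 to 13.1 in activated and 4.77 to 9.92 in plasmablast libraries. Tgtp1 and Tgtp2 were at 9.02 to 25.3 and 15.8 to 42.3 RPKM in naive libraries, at 2.47 to 11.5 and 3.50 to 12.8 RPKM in activated cells, and below 3 RPKM in plasmablasts other than KO replicate 3. For Tgtp2 all naive libraries lay above all cultured ones, and for Tgtp1 the naive and activated ranges overlapped. Igtp had the opposite order in culture, with 18.7 to 24.1 RPKM in activated cells and 25.8 to 31.9 RPKM in plasmablasts other than KO replicate 3 (15.2 RPKM), and 12.1 to 28.7 RPKM in naive cells. Irgm2 (2.45 to 5.34 RPKM in 22 libraries, 0.244 in naive KO guide 1 replicate A) and Ifi47 (6.41 to 13.2 RPKM in all 23) had ranges that overlapped between the 3 stages. In bulk libraries fewer cells with a transcript and less transcript per cell cannot be told apart.

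**Figure D2:**
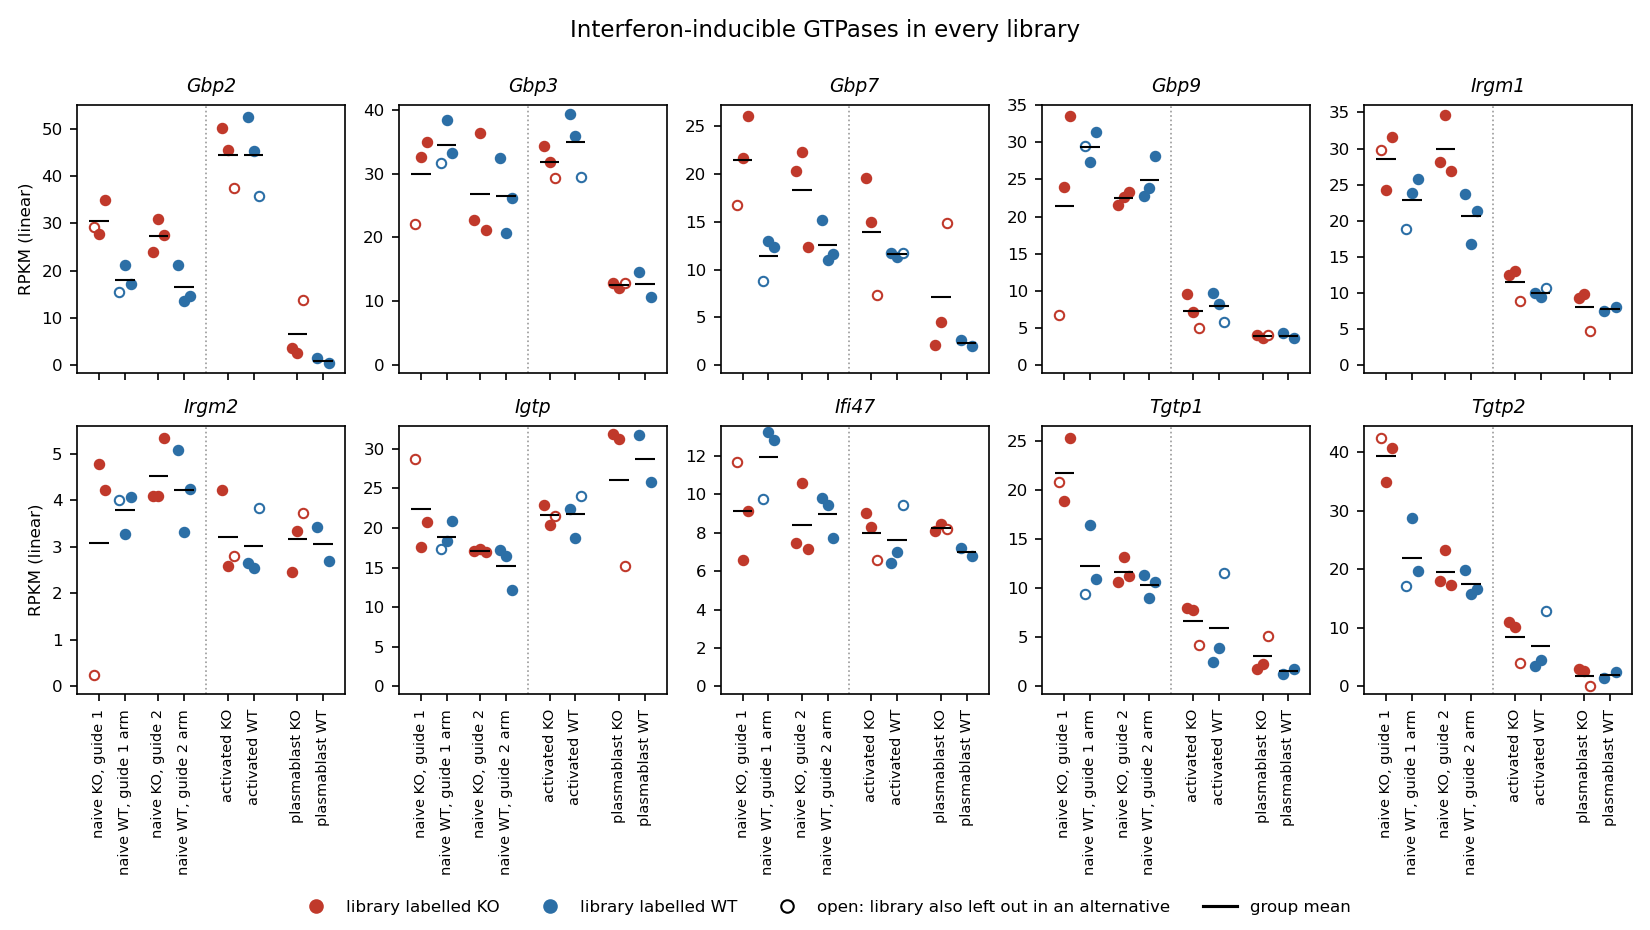
RPKM (linear vertical axes, 1 panel per member) in every library, by group, with naive groups left of the dotted line and cultured ones right of it. Points are libraries, bars are group means, and open points are the libraries also left out in the alternatives. Gbp2 is highest in activated cells (35.8 to 52.5 RPKM) and near 0 in WT plasmablasts, whereas Igtp is higher in most plasmablast libraries (25.8 to 31.9 RPKM) than in activated ones.

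In naive B cells Gbp2 rose with the Irf8 guides, and of the other members none was called with all libraries. Gbp2, a guanylate-binding protein that coats pathogen vacuoles and feeds the inflammasome, was at 29.3, 27.7 and 34.8 RPKM in KO cells of guide 1, against 15.5, 21.2 and 17.2 RPKM in WT cells of that arm. The guide 2 arm had 23.9, 30.9 and 27.5 RPKM in KO cells and 21.2, 13.6 and 14.7 RPKM in WT cells. All 6 KO libraries lay above all 6 WT libraries. The difference averaged over both guides was 0.73 on the log2(RPKM + 1) scale (SE 0.13; adjusted p = 0.0132 by limma with Benjamini-Hochberg over all tested genes), with means of 29.0 ± 3.67 RPKM in KO and 17.2 ± 3.29 in WT (SD, n = 6 each). This scale understates the change of genes with low RPKM. Over all tested genes 1.88% were called in this comparison, 1.03% as higher. Gbp2 was the call among the 10 members. The 5 activated B cell markers (Fas, Cd86, Il2ra, Batf and Myc) summed to 66.9 to 137 RPKM in KO and 64.5 to 66.8 RPKM in WT cells of guide 1, and to 51.6 to 97.6 RPKM in KO and 51.8 to 75.1 RPKM in WT cells of guide 2. None of the 5 was called over both guides (limma; 2 at an unadjusted p under 0.05). Their median was 0.37, and 0.03 without the guide 1 replicate A pair, and their part in the result was not tested.

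Gbp7, a guanylate-binding protein of the same chromosome 3 cluster, was at 16.8, 21.6 and 26.1 RPKM in KO cells of guide 1, against 8.87, 13.0 and 12.4 RPKM in WT cells of that arm. The guide 2 arm had 20.3, 22.3 and 12.4 RPKM in KO cells and 15.2, 11 and 11.6 RPKM in WT cells. The groups were apart with guide 1 and overlapped with guide 2 through KO replicate C. The mean difference of 0.67 (SE 0.17) missed the threshold (adjusted p = 0.0702, limma), and passed it without the replicate A pair of guide 1 (0.67, adjusted p = 0.0341; 3.36% of genes called). It also passed without KO guide 1 replicate A alone (0.75, adjusted p = 0.0154) and without KO guide 2 replicate C (0.79, adjusted p = 0.0246). The latter is the library that made the overlap, so leaving it out had to widen the difference. The share of all genes called in these single left-out fits is not given. Of 22 alternatives 18 left Gbp7 uncalled and 4 called it.

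The near-identical copies Tgtp1 and Tgtp2 were not called with either guide. With guide 1 Tgtp2 was at 42.3, 34.8 and 40.7 RPKM in KO and 17.1, 28.7 and 19.7 RPKM in WT cells, with no overlap. With guide 2 it was at 18.0, 23.3 and 17.4 RPKM in KO and 19.8, 15.8 and 16.7 RPKM in WT cells, which overlapped. Tgtp1 followed the same order, with 20.9, 18.9 and 25.3 RPKM in KO and 9.46, 16.5 and 10.9 RPKM in WT cells of guide 1, and 10.6, 13.2 and 11.3 RPKM in KO and 11.4, 9.02 and 10.6 RPKM in WT cells of guide 2. For guide 1 the differences were 0.80 for Tgtp1 (adjusted p = 0.0758) and 0.85 for Tgtp2 (adjusted p = 0.0521, limma), and with the copies added as 1 gene the difference of 0.85 was called (adjusted p = 0.0491). For guide 2 they were 0.16 and 0.15 (adjusted p = 1.0 each). The copies added as 1 gene differed by 0.16 for guide 2, not called, and by 0.50 over both guides (adjusted p = 0.078, limma). The difference between the guides was -0.63 for Tgtp1 and -0.70 for Tgtp2 (guide 2 minus guide 1; adjusted p = 0.918 each, limma), so it was not shown.

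With guide 1 taken alone, 0 of 10 members were called against a background of 1.11% of genes. By limma 4 were at an unadjusted p under 0.05, Gbp2, Gbp7 and the near-identical copies Tgtp1 and Tgtp2. The share of all genes at an unadjusted p under 0.05 is not given, so the background of calls is no measure for such counts. With guide 2 alone 0 of 10 were called against 0.0296% (limma; 2 at an unadjusted p under 0.05, Gbp2 and Irgm1). Irgm1 had all guide 2 KO libraries above their WT libraries, with 28.1, 34.6 and 27 RPKM in KO and 23.7, 16.8 and 21.4 RPKM in WT cells (0.52, adjusted p = 0.828), and over both guides its difference was 0.42 (SE 0.12; adjusted p = 0.13). For the difference between the guides 0 members were called (limma; 2 at an unadjusted p under 0.05), as were 0% of all genes.

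The remaining members gave no call in naive cells. Over both guides Gbp3 averaged 28.3 ± 7.08 RPKM in KO and 30.4 ± 6.15 in WT (-0.11, 95% interval -0.47 to 0.24), and Igtp 19.7 ± 4.59 in KO and 17.1 ± 2.87 in WT (0.19, interval -0.09 to 0.47). Ifi47 averaged 8.76 ± 2.05 RPKM in KO and 10.5 ± 2.12 in WT (-0.24, interval -0.57 to 0.10). Without the guide 1 replicate A pair its difference was -0.39 (interval -0.69 to -0.09; adjusted p = 0.163), with -0.68 for guide 1 (adjusted p = 0.118), where both KO libraries were below both WT libraries. Gbp9 and Irgm2 had wide intervals with KO guide 1 replicate A included, where Gbp9 was at 6.78 and Irgm2 at 0.244 RPKM. Without that library and its WT partner Gbp9 differed by -0.09 (interval -0.33 to 0.15) and Irgm2 by 0.16 (interval -0.15 to 0.47). Over the 10 members the median difference was 0.30, against -0.02 over all tested genes. Of the members 6 were positive, the near-identical copies Tgtp1 and Tgtp2 among them, beside 45.9% of all genes. The WT cells of the 2 arms, which carry no guide, gave 0 calls among the members (limma; 0 at an unadjusted p under 0.05) and 0.0493% over all genes, with a members' median of -0.22 in guide 2 arm cells relative to guide 1 arm cells.

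**Figure D3:**
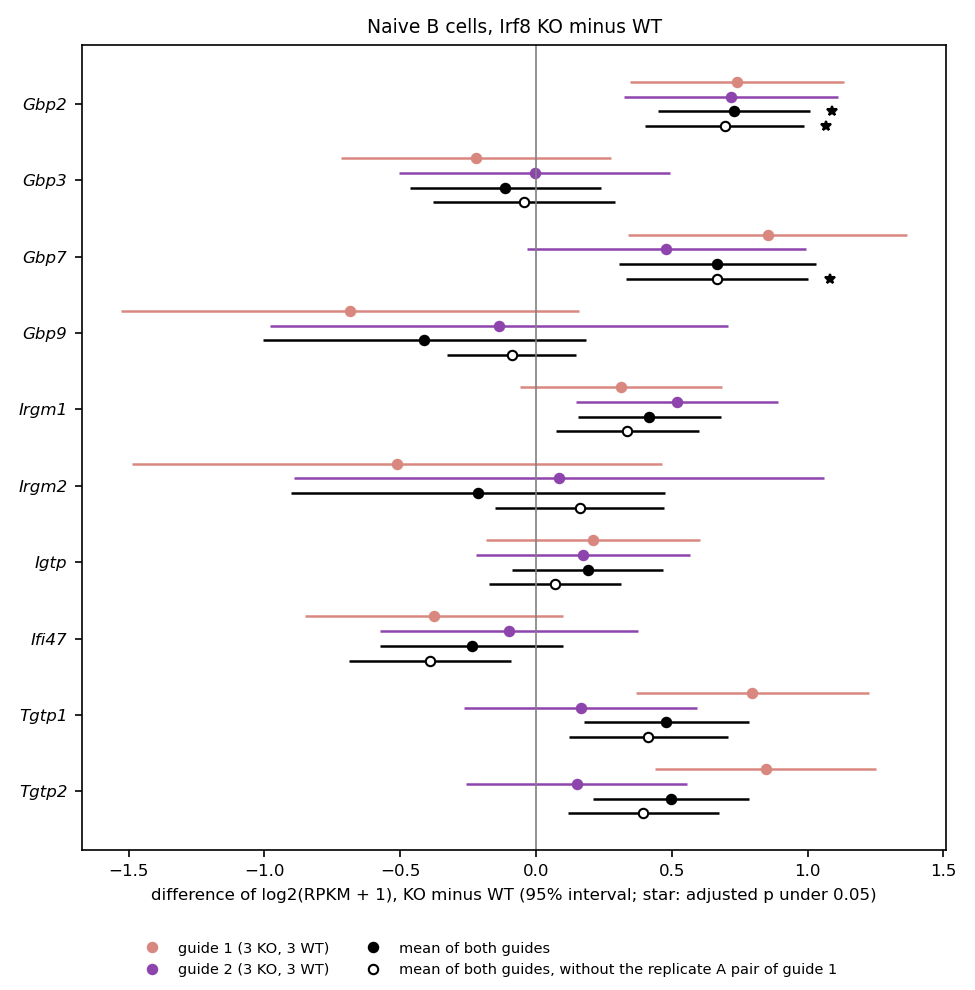
Differences of log2(RPKM + 1), KO minus WT, in naive B cells for each member (horizontal axis, with 95% intervals), by guide and as the mean of both guides. Stars mark an adjusted p under 0.05. Open points give the mean of both guides without the guide 1 replicate A pair, where Gbp2 and Gbp7 are starred. With all libraries Gbp2 lies at 0.74 with guide 1 and 0.72 with guide 2 and is starred for their mean. Tgtp1 and Tgtp2 lie at 0.80 and 0.85 with guide 1 and at 0.16 and 0.15 with guide 2.

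In activated B cells the guide comparison turned on the replicate 3 libraries. With all libraries as labelled, 0 of 10 members were called (limma; 0 at an unadjusted p under 0.05), as were 0% of all genes. Without the 3 libraries Tgtp1 and Tgtp2 rose, 2 of 10 members against 0.71% of all genes (0.619% higher). Reads of these near-identical copies may have been split between them, so the 2 calls are not separate. Tgtp2, which attacks pathogen vacuoles, was at 11 and 10.1 RPKM in KO replicates 1 and 2, against 3.50 and 4.45 RPKM in WT replicates 1 and 2. The library labelled KO replicate 3 was at 4.0 RPKM and that labelled WT replicate 3 at 12.8 RPKM, so the replicate 3 pair ran the other way, as Thy1 did. Tgtp1 was at 8.01, 7.76 and 4.19 RPKM in the libraries labelled KO and 2.47, 3.88 and 11.5 RPKM in those labelled WT.

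For Tgtp1 the difference was 1.11 without the 3 libraries (SE 0.19; adjusted p = 0.0235) and 0.32 with all of them (SE 0.48; adjusted p = 1.0). For Tgtp2 it was 1.22 (SE 0.18; adjusted p = 0.0124) and 0.33 (SE 0.61; adjusted p = 1.0, limma). Added as 1 gene with all libraries, the copies differed by 0.36 (SE 0.46), which was not called. Their sum was not fitted without the 3 libraries. Leaving out only the plasmablast library with few reads did not bring a call, and without activated WT replicate 1 alone the sign of Tgtp1 turned (-0.074). Of the other members none was called without the 3 libraries. Gbp7 was at 19.6 and 15 RPKM in KO and 11.7 and 11.4 RPKM in WT (0.53, adjusted p = 0.362). Irgm1 was at 12.5 and 13.1 RPKM in KO and 9.94 and 9.44 RPKM in WT (0.37, adjusted p = 0.208). Ifi47 differed by 0.32 (adjusted p = 0.331, limma), Irgm2 by 0.27 and Igtp by 0.07, whereas Gbp3 differed by -0.18 and Gbp9 by -0.10. Gbp2, the member called in naive cells, was at 50.1 and 45.5 RPKM in KO and 52.5 and 45.3 RPKM in WT (-0.03, interval -0.47 to 0.41). The members' median was 0.30 without the 3 libraries, against -0.01 over all genes, and 0.06 against 0.01 with them.

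In plasmablasts 0 of 10 members were called between KO and WT, with all libraries (0% of all genes; 1 member at an unadjusted p under 0.05) or without the 3 (0.071% of genes; 2 at an unadjusted p under 0.05, limma). KO plasmablasts held 3.69, 2.62 and 13.8 RPKM of Gbp2, and WT plasmablasts 1.47 and 0.490 RPKM, so every KO library was higher. The value of KO replicate 3 rests on 2 reads and that of WT replicate 2 on 6, whereas KO replicates 1 and 2 and WT replicate 1 held 200, 158 and 112 reads. The difference was 1.72 with all libraries (SE 0.52; adjusted p = 0.609) and 1.10 without the 3 (SE 0.20; adjusted p = 0.0913). Gbp3 differed by 0.00 (interval -0.45 to 0.45) with all libraries and Gbp9 by 0.01 (interval -0.61 to 0.62). The members' median was 0.02 with all libraries, against -0.12 over all genes, and 0.24 against 0.04 without the 3.

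**Figure D4:**
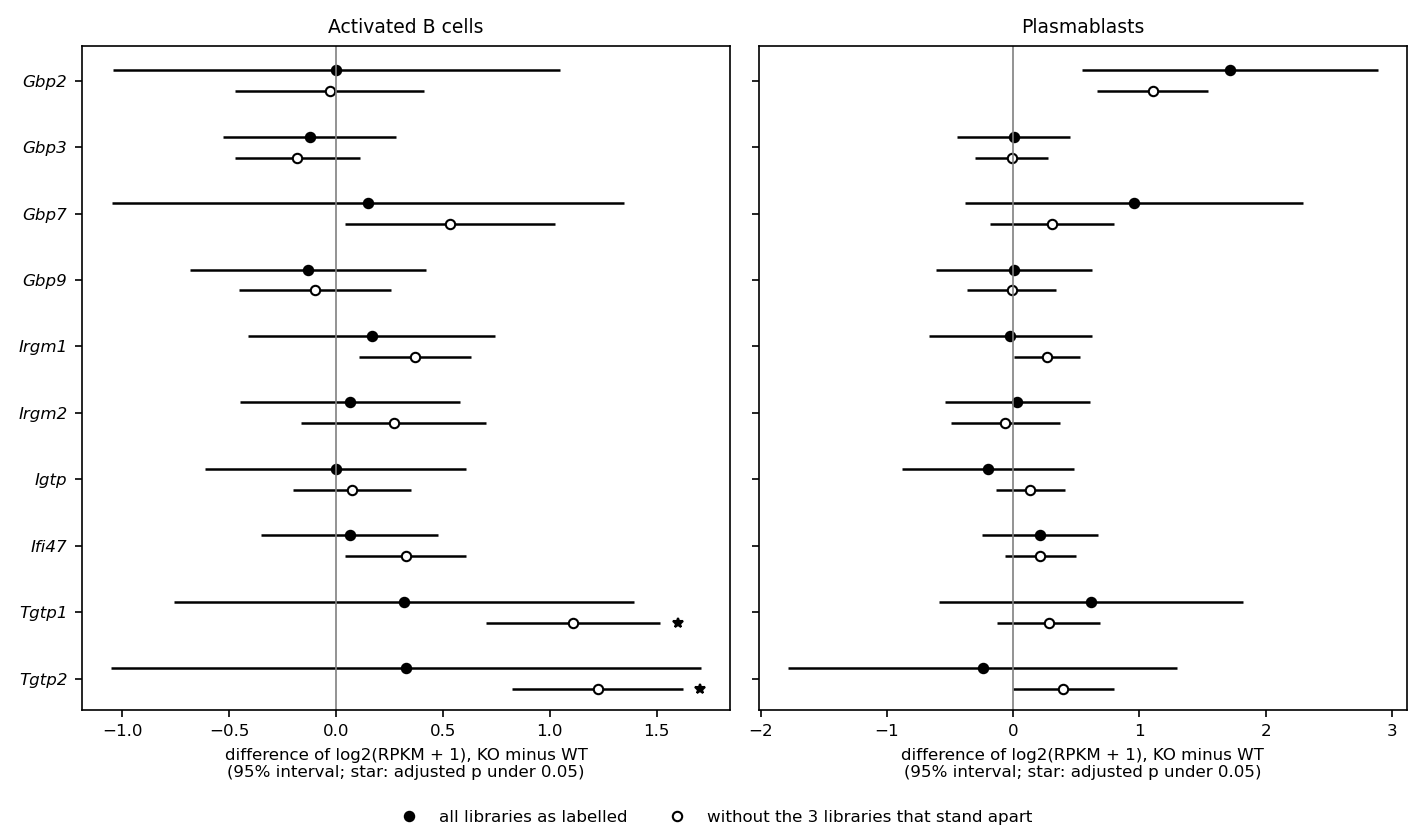
Differences of log2(RPKM + 1), KO minus WT, with 95% intervals in activated B cells (left) and plasmablasts (right), with all libraries as labelled (filled) and without 3 libraries (open). Stars mark an adjusted p under 0.05, and the horizontal scales differ between the panels. Stars stand only at Tgtp1 (1.11) and Tgtp2 (1.22) in activated cells without the 3 libraries.

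In the step from activated B cells to plasmablasts Gbp2 and Gbp3 fell in both genotypes. In KO cells Gbp2 was at 3.69, 2.62 and 13.8 RPKM in plasmablasts, against 50.1, 45.5 and 37.5 RPKM in activated cells. In WT cells it was at 1.47 and 0.490 RPKM in plasmablasts, against 52.5, 45.3 and 35.8 RPKM in activated cells. No plasmablast library reached any activated library. The difference was -2.84 in KO (SE 0.47; adjusted p = 0.0158) and -4.55 in WT (SE 0.52; adjusted p = 0.00435, limma), and activated means were 6.62 times plasmablast means in KO and 45.4 times in WT. Without the 3 libraries the difference was -3.56 in KO (adjusted p = 1.91e-07) and -4.70 in WT (adjusted p = 5.99e-09), and the activated mean was 15.1 times the plasmablast mean in KO and 49.9 times in WT.

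Gbp3 moved in the same direction. It was at 12.8, 12 and 12.9 RPKM in KO plasmablasts and 34.3, 31.8 and 29.3 RPKM in activated KO cells. In WT it was at 14.6 and 10.7 RPKM in plasmablasts and 39.4, 35.9 and 29.5 RPKM in activated cells. All plasmablast libraries lay below all activated libraries, with differences of -1.27 in KO (SE 0.18; adjusted p = 0.0101) and -1.40 in WT (SE 0.20; adjusted p = 0.0136). Without the 3 libraries they were -1.34 in KO (adjusted p = 1.11e-05) and -1.51 in WT (adjusted p = 2.11e-06, limma). With all libraries these were the 2 members called in each genotype, 2 of 10 as lower, against 3.44% of genes called in KO (2.67% lower) and 1.76% in WT (1.43% lower). The call of Gbp2 was lost in WT without plasmablast WT replicate 2 (-4.19, adjusted p = 0.102) and in KO without activated KO replicate 1, 2 or 3 (-2.74 to -2.95, adjusted p = 0.0614 to 0.0792). That of Gbp3 was lost in WT without any of 4 libraries, activated replicates 1 and 2 and plasmablast replicates 1 and 2 (-1.19 to -1.61, adjusted p = 0.062 to 0.245), and in KO without activated replicate 1 or 2 (adjusted p = 0.0543 and 0.066).

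Without the 3 libraries 7 of 10 members fell and 1 rose in KO, against 33.6% of all genes (21.5% lower, 12.1% higher), and 6 fell and 1 rose in WT, against 46.3% (30.7% lower, 15.5% higher). Tgtp1 and Tgtp2, whose reads may be split, count as 2 of the members that fell in each genotype. Gbp7 fell in both, to 2.12 and 4.53 RPKM in KO plasmablasts, against 19.6 and 15 RPKM in activated KO cells (-2.13, adjusted p = 1.85e-05), and to 2.67 and 2.05 RPKM in WT plasmablasts, against 11.7 and 11.4 RPKM in activated WT cells (-1.91, adjusted p = 2.41e-05). Gbp9, of chromosome 5, fell by 0.93 in KO (adjusted p = 0.000904) and by 1.01 in WT (adjusted p = 0.000281). All 4 guanylate-binding proteins were thus lower in plasmablasts of both genotypes.

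The immunity-related GTPases did not move together. Tgtp1 was at 1.82 and 2.31 RPKM in KO plasmablasts and 8.01 and 7.76 RPKM in activated KO cells (-1.54, adjusted p = 5.45e-05), and at 1.29 and 1.76 RPKM in WT plasmablasts and 2.47 and 3.88 RPKM in activated WT cells (-0.71, adjusted p = 0.00781). Tgtp2 fell by 1.62 in KO (adjusted p = 3.19e-05) and by 0.79 in WT (adjusted p = 0.00364). Added as 1 gene with all libraries, the copies were not called. Their difference there was -1.35 in KO (adjusted p = 0.147) and -1.43 in WT (adjusted p = 0.241, limma). Igtp rose instead, to 31.9 and 31.2 RPKM in KO plasmablasts, against 23 and 20.4 RPKM in activated KO cells (0.52, adjusted p = 0.00675), and to 31.7 and 25.8 RPKM in WT plasmablasts, against 22.4 and 18.7 RPKM in activated WT cells (0.46, adjusted p = 0.00957).

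Irgm1 fell in KO by 0.38 (adjusted p = 0.0285), with 9.30 and 9.92 RPKM in plasmablasts and 12.5 and 13.1 RPKM in activated cells. In WT its difference of -0.28 missed the threshold (adjusted p = 0.0734), with 7.52 and 8.07 RPKM in plasmablasts and 9.94 and 9.44 RPKM in activated cells. Irgm2 and Ifi47 were called in neither genotype, with Ifi47 at 8.28 ± 0.249 RPKM in KO plasmablasts and 8.66 ± 0.534 in activated KO cells (SD, n = 2 each; interval -0.34 to 0.22), and at 7.0 ± 0.286 in WT plasmablasts and 6.71 ± 0.428 in activated WT cells (interval -0.23 to 0.33). The members' median difference was -1.14 in KO, against -0.10 over all genes, and -0.75 in WT, against -0.16. Leaving out plasmablast KO replicate 3 alone gave 6 calls in KO and 7 in WT. The share of all genes called in that fit is not given, so these counts have no background beside them. Quantile normalization and median centring, which move the median of all genes by up to 0.23 and 0.17 on the log2 scale in cultured libraries, left the direction of the differences called in this step, with or without the 3 libraries, as it was with all libraries.

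Whether the step differed between the genotypes was tested as an interaction, the KO difference minus the WT difference. With all libraries 0 of 10 members were called (limma; 1 at an unadjusted p under 0.05), as were 0% of all genes, and without the 3 libraries 0 of 10 (3 at an unadjusted p under 0.05) and 0.0304% of genes. For Gbp2 the interaction was 1.13 without the 3 libraries (interval 0.51 to 1.76; adjusted p = 0.338), and for Tgtp1 and Tgtp2 it was -0.83 each (adjusted p = 0.46 and 0.429). Other genes also differed between the gates. The B cell markers summed to 612 to 1183 RPKM in KO plasmablasts and 1689 to 1742 in activated KO cells. In WT they summed to 1151 to 1503 RPKM in plasmablasts and 1521 to 2271 in activated cells. The 5 activated B cell markers summed to 52.1 to 73.7 RPKM in KO plasmablasts and 160 to 188 in activated KO cells. In WT they summed to 61.2 to 76.0 RPKM in plasmablasts and 138 to 210 in activated cells. These ranges are over all libraries, those that stood apart among them. The part of these markers in the result was not tested.

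**Figure D5:**
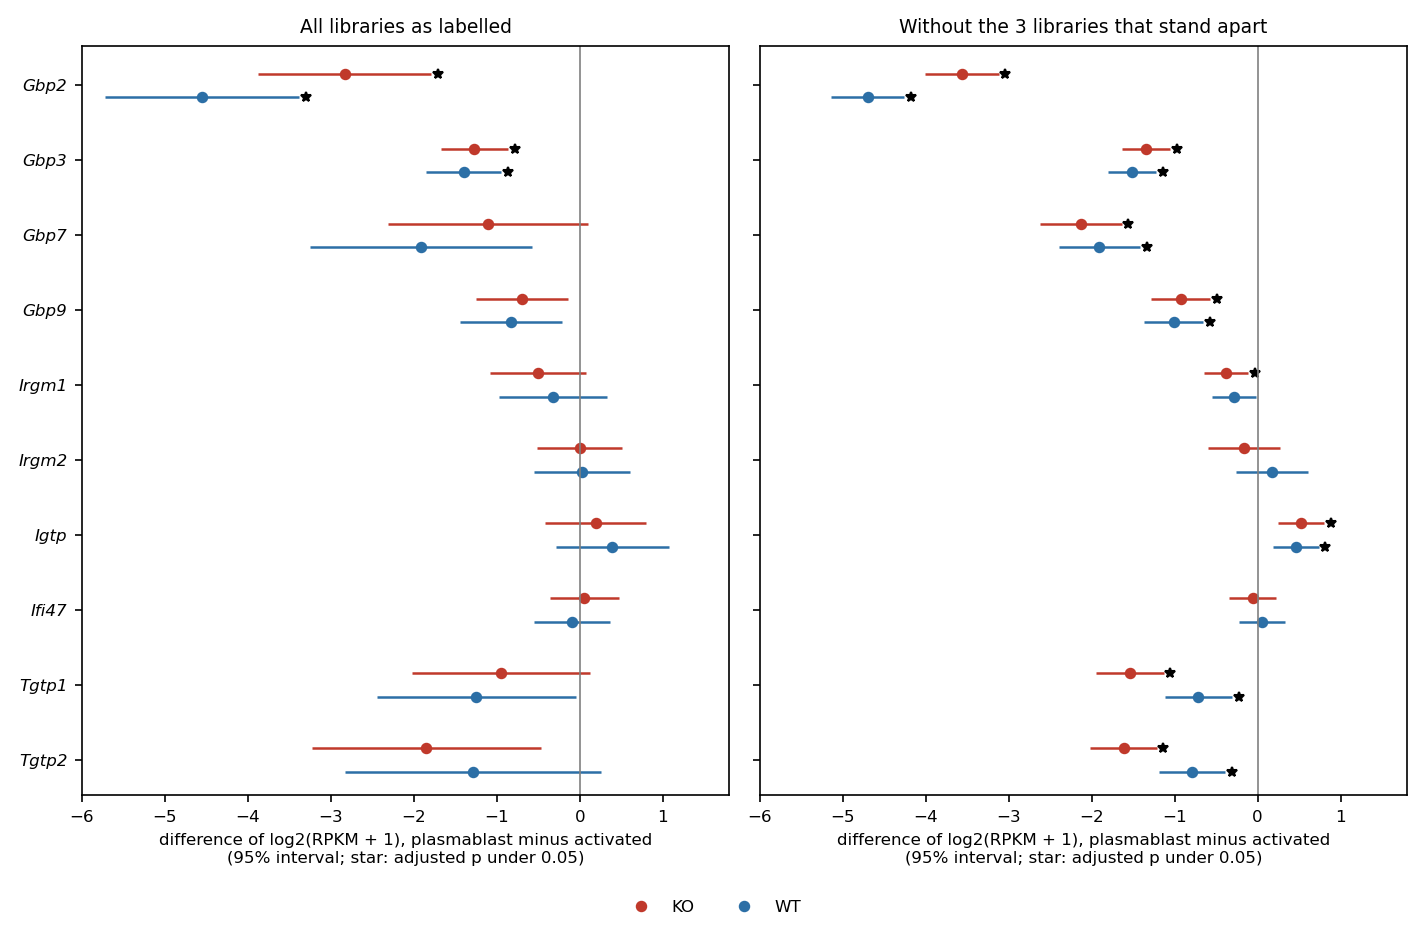
Differences of log2(RPKM + 1), plasmablast minus activated B cells, with 95% intervals for KO (upper of each pair) and WT, with all libraries as labelled (left) and without 3 libraries (right). Stars mark an adjusted p under 0.05. Gbp2 is lowest in both panels (-2.84 and -4.55 with all libraries), and Igtp is the only starred member to the right of 0 (0.52 and 0.46 without the 3 libraries).

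Among 18 other genes of the same families, 11 were listed and 9 tested in each table. In naive cells 0 of the 9 were called over both guides (limma; 4 at an unadjusted p under 0.05), with a median difference of 0.23. In plasmablasts 1 of 9 fell in both genotypes with all libraries, Gbp2b, a close relative of Gbp2. The share of all genes lower in that fit was 2.67% in KO and 1.43% in WT. Gbp2b was at 0.265 ± 0.460 RPKM in KO plasmablasts and 6.91 ± 2.18 in activated KO cells (-2.66, adjusted p = 0.0117), and at 0.307 ± 0.0870 in WT plasmablasts and 6.98 ± 3.62 in activated WT cells (-2.50, adjusted p = 0.0266). Its differences without the 3 libraries were -2.77 in KO and -2.88 in WT. Without the 3 libraries 3 of 9 fell in KO (Gbp2b, Gbp5 and 9930111J21Rik2), and in WT 3 fell (Gbp2b, Gbp5 and Gbp4) and 1 rose, Gm4070, at 29.6 ± 0.783 RPKM in plasmablasts and 13.8 ± 0.140 in activated cells. Over all genes 21.5% were lower in KO in that fit, and 30.7% were lower and 15.5% higher in WT, so these shares are near the background.

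The genes that carry the interferon-gamma signal were not called in naive cells (0 of 8 tested over both guides by limma, 0 at an unadjusted p under 0.05). Irf1, a transcription factor that interferon-gamma induces, averaged 50.8 ± 6.63 RPKM in naive KO and 54.1 ± 6.04 in naive WT cells (-0.09, adjusted p = 0.728). Between plasmablasts and activated cells 5 of 8 fell in each genotype without the 3 libraries, and 0 of 8 with all libraries (3 at an unadjusted p under 0.05 in KO and 4 in WT, limma), beside 21.5% of all genes lower in KO and 30.7% in WT without the 3 libraries. They were the receptor chains Ifngr1 and Ifngr2, the kinase Jak1, and the inhibitors Socs1 and Ptpn2. Jak1 was at 26.5 ± 0.535 RPKM in KO plasmablasts and 56.6 ± 3.12 in activated KO cells (-1.07, adjusted p = 7.68e-06), and at 24.2 ± 0.426 in WT plasmablasts and 61.3 ± 5.06 in activated WT cells (-1.31, adjusted p = 7.92e-07).

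Of the other interferon-gamma-induced genes 1 of 19 tested rose in naive KO cells over both guides, beside 1.03% of all genes higher. It was Cd274, the gene of the checkpoint ligand PD-L1, at 53.1 ± 14.1 RPKM in KO and 27.4 ± 4.88 in WT (0.91, adjusted p = 0.00549). Of 23 type I interferon-stimulated genes 5 rose in naive KO cells (Ifit1, Ifit3b, Isg15, Ifit3 and Oas1a), beside the same 1.03% of all genes. Ifit1, an RNA-binding antiviral protein, led them (1.91, adjusted p = 0.00313), and the median of the 23 was 0.03. In activated cells without the 3 libraries 5 of 19 rose (Rtp4, Irf7, Oas1a, Cmpk2 and Isg15), with a median of 0.35, beside 0.619% of all genes. With all libraries as labelled 0 of 19 were called (limma; 0 at an unadjusted p under 0.05), as were 0% of all genes. Isg15 is a ubiquitin-like modifier. Without the 3 libraries it was at 122 ± 9.37 RPKM in activated KO and 75.9 ± 2.45 in activated WT cells (0.68, adjusted p = 0.0139, limma; SD, n = 2 each). Between plasmablasts and activated cells Ciita, the interferon-gamma-induced coactivator of MHC class II genes, fell in both genotypes with all libraries, by 2.09 in KO (adjusted p = 0.0278) and by 3.28 in WT (adjusted p = 0.0108), and without the 3 libraries by 2.61 in KO and 3.62 in WT. Irf8 itself was lower in plasmablasts, at 21 ± 3.37 RPKM in KO plasmablasts and 76.5 ± 13.7 in activated KO cells (-1.81, adjusted p = 0.0117), and at 21.1 ± 4.99 in WT plasmablasts and 87.3 ± 24.8 in activated WT cells (-1.98, adjusted p = 0.0156). Its differences without the 3 libraries were -1.77 in KO and -2.22 in WT.

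The members' levels varied together in part, described here with no test since the libraries share their groups. Over the 12 naive libraries Pearson's r was 0.98 between Tgtp1 and Tgtp2, 0.88 between Gbp2 and Irgm1 and 0.84 between Gbp2 and Gbp7. Gbp9 and Irgm2 had r of 0.87 with each other, both being low in KO guide 1 replicate A. Over the 10 cultured libraries without plasmablast KO replicate 3, Gbp2 and Gbp3 had r of 0.98, Gbp2 and Gbp7 0.93, and Igtp ran against the guanylate-binding proteins, with -0.82 for Gbp2 and -0.85 for Gbp3. The genes outside the list most like the members' mean z-score were Clk1 (r of 0.82), Nmrk1, Gm14137, 4833420G17Rik and Usp16 (0.79) in naive libraries, and AW112010 (0.97), Gm8369, A630023P12Rik, Ddx60 and Gm6093 (0.95) in cultured ones.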

How the data were processed

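PolyA RNA of FACS-sorted spleen B cells was made into libraries with SMART-seq v4 and Nextera XT kits, per the labels' protocols. The deposited values are RPKM, computed by the authors in a naive table (12 libraries) and a cultured table (11 libraries). The submitters' processing notes name STAR and the mm10 build. Versions, the counting tool, the annotation and strand handling are not given in the sources used here. The deposited RPKM were put on the log2 scale with a pseudocount of 1, and genes reaching 1 RPKM in 2 or more libraries were kept (10137 naive, 9986 cultured). Group means were fitted once per table (limma 3.58.1, R 4.3.3), and 10 comparisons were tested by limma, two-sided, with a variance trend, after the code was tested on simulated data. A gene was called at a Benjamini-Hochberg adjusted p under 0.05 over all tested genes of the table. Shares of all genes at an unadjusted p under 0.05 are not given, so counts at that threshold have no background beside them. Values after ± are SD between libraries. Reads per library were estimated from the smallest steps between RPKM values.

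All 10 members are named. Of each pathway list the called genes are named, at most 6 by size, and the 5 most similar genes per table were taken by Pearson's r. Some list genes are not reported here. The members and lists were chosen with earlier results of these data known. Alternatives were other pseudocounts (0.1 and 5), other filters, quantile normalization, median centring, library weights, a replicate block, left-out libraries and Tgtp1 with Tgtp2 added. The fit without plasmablast KO replicate 3 was, for comparisons that do not hold it, chosen after seeing the data. Promoter windows and gene positions are from RefSeq (GRCm38.p6), and transcript identity was computed with Biopython 1.88.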

Additional observations from a re-analysis of the deposited data

How the results depend on the processing

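Over the 19 differences of members called with or without the libraries that stand apart, 329 alternative fits kept direction and side of the threshold in 278, lost a call in 11, gained one in 39 and turned the sign in 1. That was Tgtp1 in activated KO against WT, at -0.074 without activated WT replicate 1 (0.32 with all libraries, and -0.074 to 0.85 when single libraries were left out). The call of Gbp2 in naive cells over both guides stayed in all 22 alternatives. The number of members called in naive KO against WT over both guides was 1, and 2 with library weights and without the guide 1 replicate A pair, with 1 to 2 when single libraries were left out. For guide 1 alone it was 0, and 1 with a pseudocount of 5, a filter of 5 RPKM, quantile normalization, median centring, library weights, and Tgtp1 and Tgtp2 added, with 0 to 2 when single libraries were left out. In activated KO against WT it was 0, 3 with library weights and 2 without the 3 libraries. In WT plasmablasts against activated cells it was 2, and 7 with library weights, without the 3 libraries and without plasmablast KO replicate 3 alone, with 0 to 7 when single libraries were left out. In KO it was 2, 8 with library weights and without the 3 libraries, and 1 without both activated replicate 3 libraries, with 0 to 6 when single libraries were left out. The cause of these moves was not tested. In the plasmablast step the share of all genes called also rose without the 3 libraries. It went from 3.44% to 33.6% in KO and from 1.76% to 46.3% in WT. For library weights and single left-out libraries that share is not given, so those counts have no background beside them. Same-numbered libraries correlated at r from -0.24 to 0.25 after group means were removed, over 0.1 in 2 of 16 pairs, and were not taken as pairs. The cultured values hold the replicate 3 libraries that stood apart, so a low r there cannot show that pairing is absent. With the replicate block the counts of calls were those of the unpaired fits (0, 0, 1, 0 and 0 in the naive comparisons, 0, 0, 2, 2 and 0 in the cultured ones). The depth limits WT plasmablast Gbp2, with 6 reads in replicate 2, and all members in plasmablast KO replicate 3.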

Other observations

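Partners of the GTPases in 2 cellular processes were looked at in the same fits. Of 5 tested inflammasome genes 4 fell in plasmablasts relative to activated cells in each genotype without the 3 libraries (Aim2, Casp1, Gsdmd and Pycard), and 0 of 5 with all libraries (limma; 3 at an unadjusted p under 0.05 in KO, 1 in WT). Over all genes 21.5% were lower in KO and 30.7% in WT without the 3 libraries. Aim2, a sensor of cytosolic DNA, was at 0.550 ± 0.255 RPKM in KO plasmablasts and 5.86 ± 1.10 in activated KO cells (-2.15, adjusted p = 7.09e-06), and at 0.750 ± 0.160 in WT plasmablasts and 6.32 ± 1.76 in activated WT cells (-2.05, adjusted p = 5.57e-06; SD, n = 2 each). Of 13 tested autophagy genes 3 rose and 1 fell in KO plasmablasts (Map1lc3a, Atg5 and Map1lc3b higher, Atg12 lower) and 4 rose in WT plasmablasts (Map1lc3a, Gabarap, Map1lc3b and Atg5) without the 3 libraries, and 0 of 13 were called with all libraries (limma; 0 at an unadjusted p under 0.05 in KO, 1 in WT). Counted in either direction, these shares are at or below those over all genes in the same fits, 33.6% in KO and 46.3% in WT. Over all genes 12.1% were higher in KO and 15.5% in WT, so the shares that rose were larger than that. They rest on few genes, and the excess was not tested. Map1lc3a, a ubiquitin-like protein attached to autophagosome membranes, was at 18.4 ± 0.302 RPKM in KO plasmablasts and 10.3 ± 0.223 in activated KO cells (0.78, adjusted p = 0.000204), and at 15.4 ± 0.0396 in WT plasmablasts and 6.95 ± 0.339 in activated WT cells (1.04, adjusted p = 1.1e-05). In naive KO against WT over both guides 0 of 6 inflammasome genes and 0 of 13 autophagy genes were called (limma; 1 of each at an unadjusted p under 0.05).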
